A study of Mus musculus with 19 samples.

Results

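The genes of cholesterol synthesis, uptake and efflux were examined in the epididymal white adipose tissue (eWAT) of male C57BL6/J mice. The set was a fixed list of gene symbols, and all 32 were found among the 24237 genes with values: 18 synthesis enzymes, 4 SREBP regulators, 4 genes of transport and storage, and 6 LXR and efflux genes. The mice were 9 to 10 weeks old when allocated to groups, were first kept on standard chow, and then ate their diets for 17 weeks. NormMg-LFD (n = 4) combined a low-fat diet, with 10% of energy from fat, with 0.21% wt/wt magnesium oxide. LowMg-LFD (n = 5) had the same fat content and 0.03% magnesium oxide. NormMg-HFD (n = 5) was a high-fat diet with 60% of energy from fat and 0.21% magnesium oxide, and LowMg-HFD (n = 5) had that fat content with 0.03% magnesium oxide. Palm oil was the fat source, and each sample was the RNA of the fat pad of 1 mouse, with no cell sorting. The comparisons addressed how dietary fat and dietary Mg2+ each relate to the expression of these genes in fat tissue.

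Cells make cholesterol from acetyl-CoA through mevalonate, farnesyl diphosphate, squalene and lanosterol. When membrane sterol is low, SCAP carries the precursor of the transcription factor SREBP2 out of the endoplasmic reticulum, and INSIG proteins hold it back when sterol is plentiful. Liver X receptors (LXRs) sense oxidised sterols and switch on export through ABC transporters and apolipoprotein E, while adipose tissue is known as a large store of cholesterol, much of it free and lying at the surface of the lipid droplet.

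SREBP2 binds sterol regulatory elements and works with the factor NF-Y, which binds CCAAT. A stretch of 300 bases around each start site (250 before it and 50 after it, RefSeq on GRCm38.p6) was searched on both strands for one form of the sterol element, TCACNCCAC, and for CCAAT. Promoters were listed for 26 of the 32 members, without Abcg1, Fdft1, Fdps, Npc1, Sqle and Stard4. These members had 35 listed promoters, since a gene can have several. Counted by promoter, CCAAT was found in 14 of 18 for the synthesis enzymes (77.8%), 3 of 7 for the SREBP regulators (42.9%), 2 of 2 for transport and storage and 1 of 8 for the LXR and efflux genes (12.5%), against 37.4% of all 32851 promoters. The sterol element form was found in 1 of the 35, that of Hmgcs1, and in 1.24% of all promoters. Such matches describe the letters in these windows and not binding. The 250 bases before the start are shown for Hmgcs1 (chr13:119690101-119690350, plus strand), the member with both motifs, for Nsdhl (chrX:72918271-72918520, plus strand), which has CCAAT alone, and for Acat2 (chr17:12960726-12960975, minus strand), the synthesis enzyme that held neither in its listed promoter. Capitals mark the matches, and CCAAT on the other strand reads ATTGG.
Hmgcs1: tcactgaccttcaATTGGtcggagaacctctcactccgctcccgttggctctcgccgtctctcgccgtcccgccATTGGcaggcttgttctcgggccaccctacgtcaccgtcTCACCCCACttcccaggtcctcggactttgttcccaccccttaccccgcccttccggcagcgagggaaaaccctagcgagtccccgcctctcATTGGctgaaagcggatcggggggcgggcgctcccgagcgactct
Nsdhl: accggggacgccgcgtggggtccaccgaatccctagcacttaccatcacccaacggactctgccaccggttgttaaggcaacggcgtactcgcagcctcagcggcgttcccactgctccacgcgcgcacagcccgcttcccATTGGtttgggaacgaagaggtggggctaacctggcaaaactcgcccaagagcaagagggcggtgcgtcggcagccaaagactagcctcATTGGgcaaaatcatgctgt
Acat2: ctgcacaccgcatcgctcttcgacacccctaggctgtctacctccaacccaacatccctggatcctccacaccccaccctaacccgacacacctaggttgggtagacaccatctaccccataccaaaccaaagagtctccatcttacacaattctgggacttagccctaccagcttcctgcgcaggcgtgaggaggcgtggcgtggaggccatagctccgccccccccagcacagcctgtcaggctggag
In Hmgcs1 the sterol element form began 137 bases before the start, between CCAAT matches that began 176 and 45 bases before it, and no matches overlapped.

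Between 12986441 and 13027028 reads were sequenced per mouse, of which 86.1 to 90.4% mapped. The adipocyte markers were high in every mouse (8 genes, summed FPKM 12740 to 27080), as the labelled tissue would have them. FPKM counts fragments per kilobase of transcript, scaled to the mapped fragments of the library, and so is a level per length that allows genes to be set side by side. NormMg-LFD replicate 3 stood apart in its exocrine pancreas markers (8 genes, summed FPKM 1448 against 12.4 to 52.4 in the other mice), and LowMg-LFD replicate 4 in its epididymis markers (5 genes, 122 against 0 to 3.61). No LowMg-HFD mouse stood apart in the pancreas list. The study's methods place pancreatic tissue in a LowMg-HFD sample that was left out, which differs from the deposited values. For Lipa, Nceh1 and Fasn, chosen after their values were seen, NormMg-LFD replicate 3 lay outside LowMg-HFD, with an FPKM of 19.57 (33.3 to 125 in LowMg-HFD), 2.24 (5.60 to 24.0) and 1355 (308 to 622). For Soat1, Ebp and Abca1 it lay inside the LowMg-HFD range. Group labels were kept as given. The macrophage markers (12 genes, none at 0 in any group) summed to 709 to 829 in NormMg-LFD, 546 to 1059 in LowMg-LFD, 2382 to 3751 in NormMg-HFD and 843 to 2146 in LowMg-HFD. In bulk tissue, fewer cells of a type and less RNA per cell cannot be told apart.

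On normal Mg2+, the high-fat diet went with higher expression of 15 members, and differences between roles were not tested. Of the 30 members that passed the filter on low values, 15 were higher in NormMg-HFD than in NormMg-LFD and 1 was lower: 9 of 17 synthesis enzymes, Srebf2 and Insig1, all of Soat1, Npc1 and Npc2, and Abcg1 rose, and Apoe fell. Of the 15, Mvd passed the filter through NormMg-HFD alone, and Soat1 through NormMg-HFD and LowMg-HFD alone. A gene was called at an adjusted p under 0.05 in limma on log2(FPKM + 1), with Benjamini-Hochberg adjustment over all 8336 genes tested, and 24.6% of these were called higher and 12.8% lower in this comparison. Of all called genes 34.2% were lower as deposited, 49.9% after median centring and 53.1% after quantile normalization. The median log2 difference was 0.51 over the members tested and 0.07 over all genes tested. All NormMg-HFD mice lay above all NormMg-LFD mice for 15 members, Mvd and Soat1 among them, and below them for 1, against 21.5% and 10.6% of all genes tested. Without NormMg-LFD replicate 3 or without NormMg-LFD replicate 2 the count of members called higher was 9, and with NormMg-LFD replicate 3 and LowMg-LFD replicate 4 both left out it was 10. The count lower stayed at 1 without NormMg-LFD replicate 3.

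Within the high-fat diet, low Mg2+ went with lower expression of 8 members, and differences between roles were not tested. In LowMg-HFD against NormMg-HFD, 8 of the 30 members were lower and 0 were higher: Mvk, Fdft1, Nsdhl and Dhcr7 among the synthesis enzymes, Soat1, Npc1 and Npc2, and Abcg1. Over all genes tested, 12.9% were called lower and 5.58% higher, a split that moved with the scaling, since 69.8% of all called genes were lower as deposited, 56.7% after median centring and 52.8% after quantile normalization. All 17 synthesis enzymes tested had a log2 difference below 0 (median -0.50, range -0.84 to -0.06). Over all genes tested 4708 of 8336 were below 0, with a median of -0.04. Mvd and Sqle, 2 of the 17, passed the filter through NormMg-HFD alone. This favours a difference below 0, so these 2 are no support for it. The groups did not overlap for 8 members, all lower, against 9.56% of all genes tested lower and 3.2% higher. Mvd is among these 8 and, being tested through NormMg-HFD alone, is no support for a difference. The count of 8 members called lower fell to 3 without NormMg-HFD replicate 3, without LowMg-HFD replicate 3 or without LowMg-HFD replicate 5, and was 11 without LowMg-LFD replicate 1 or 2. Members short of the threshold here passed it as lower in some alternatives: Fdps and Srebf2 in 7 of 28 each, Ebp and Tm7sf2 in 4, Msmo1 and Lss in 3, Idi1 in 2, and Mvd in 1. Apoe passed it as higher in 1 (0.54 on the log2 scale).

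On the low-fat diet, no difference between LowMg-LFD and NormMg-LFD passed the test for a member, nor for any gene (0.0% of 8336 called by limma). At an unadjusted p under 0.05 there were 2 members, Acat2 and Tm7sf2, and 547 genes in all. Between LowMg-HFD and LowMg-LFD, Hmgcs1 was higher and Acat2 and Apoe were lower, so 1 and 2 of 30 members were called where 12.4% of all genes tested were higher and 3.51% lower (1036 and 293 genes as deposited, 593 and 531 after median centring, 549 and 530 after quantile normalization). The count lower was 1 without NormMg-LFD replicate 3, as the Apoe call was lost in 22 of 28 alternatives. The effect of Mg2+ on the high-fat diet was compared with that on the low-fat diet by an interaction term, which no member passed (1.25% of all genes did). The smallest adjusted p among the members was 0.0551, for Npc1. An unadjusted p under 0.05 was found for 11 of the 30 members and for 1698 of all 8336 genes tested. NormMg-HFD enters the fat comparison on normal Mg2+ and the Mg2+ comparison on the high-fat diet, so opposite differences in them are not independent of each other.

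**Figure D1:**
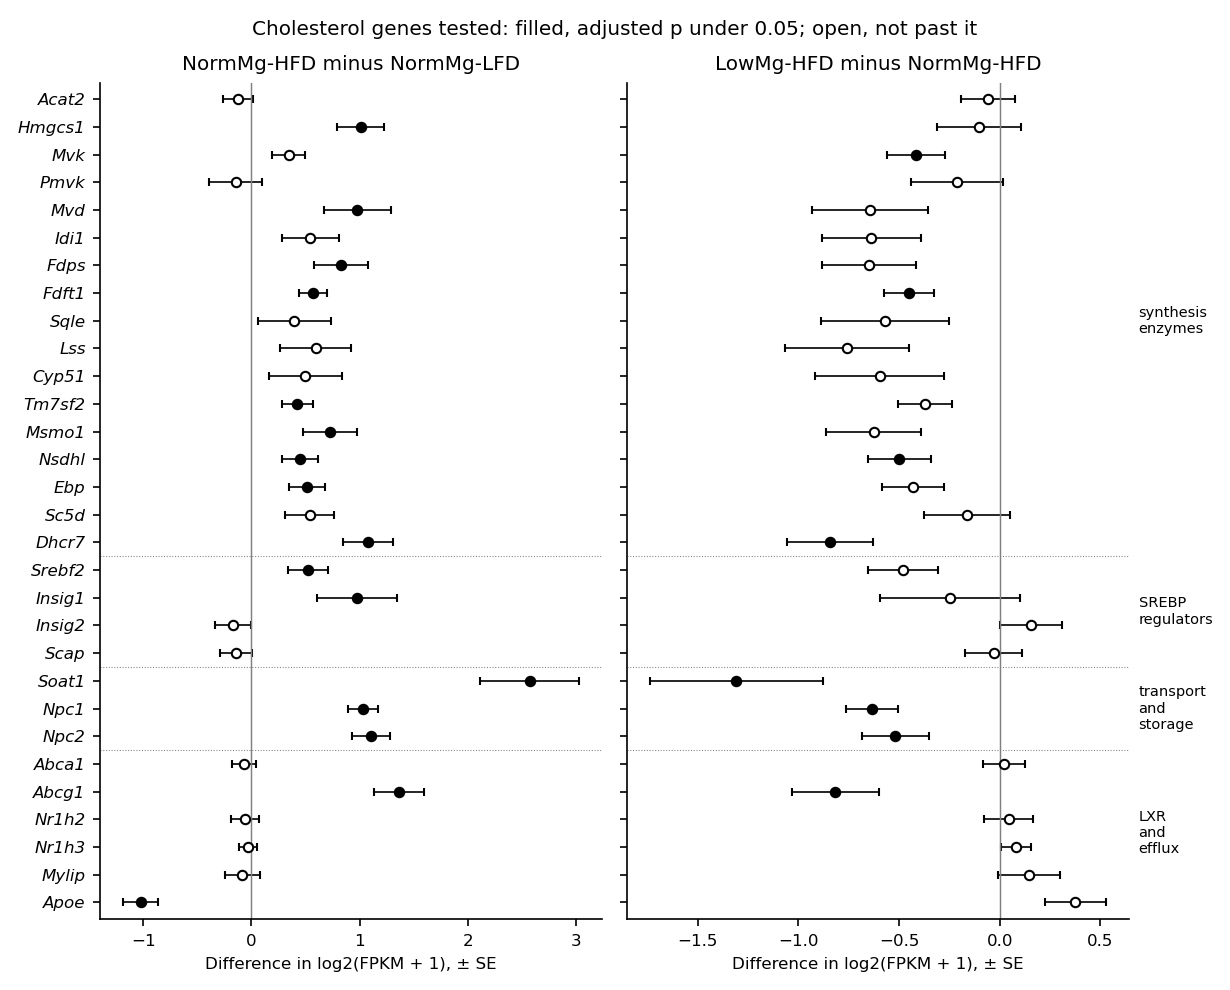
Difference in log2(FPKM + 1) for the 30 members tested, with fat on normal Mg2+ on the left (n = 5 against 4) and Mg2+ on the high-fat diet on the right (n = 5 against 5). Points are limma estimates, bars are SE, and filled points have an adjusted p under 0.05. Soat1 lies farthest from 0 in each panel. The 17 synthesis enzymes all lie below 0 on the right, which the filter favours for Mvd and Sqle, tested through NormMg-HFD alone.

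Acat2 and Hmgcs1 act at the start of the pathway. Acat2 (chr17:12942890-12960747), which joins 2 acetyl-CoA molecules, had an FPKM of 37.6, 34.1, 28.7 and 31.5 in NormMg-LFD and of 64.3, 37.7, 60.3, 43.4 and 40.1 in LowMg-LFD, in the order of replicate numbers that is kept throughout, with gene positions on GRCm38. The HFD values were 33.0, 29.8, 28.1, 33.6 and 26.2 in NormMg-HFD and 25.6, 31.7, 31.2, 29.6 and 26.4 in LowMg-HFD. All LowMg-LFD mice lay above all mice of the other groups. The log2 difference of LowMg-HFD minus LowMg-LFD was -0.72 ± 0.13 (SE, n = 5 against 5, limma adjusted p = 0.00197), which held in 28 of 28 alternative fits. LowMg-LFD minus NormMg-LFD was 0.54 ± 0.14 on the log2 scale and did not pass (limma adjusted p = 0.74). Acat2 has the near-identical neighbour Acat3, with an FPKM of 15.8 to 22.7 in 18 mice and of 40.6 in LowMg-HFD replicate 4, and reads may be split between them.

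Hmgcs1 (chr13:119690379-119708260), which makes HMG-CoA, was the synthesis enzyme with the highest mean FPKM in every group. It stood at 62.8, 73.4, 61.2 and 88.8 in NormMg-LFD and at 90.6, 53.7, 115, 44.4 and 98.6 in LowMg-LFD. In NormMg-HFD it was 135, 163, 123, 153 and 147, and in LowMg-HFD 116, 161, 109, 130.0 and 160.2. Every NormMg-HFD mouse was above every NormMg-LFD mouse, and the 2 HFD groups overlapped widely. The high-fat diet raised it by 1.01 ± 0.22 in log2 terms on normal Mg2+ (n = 5 against 4, limma adjusted p = 0.00126), in 28 of 28 alternative fits. On low Mg2+ the rise was 0.81 ± 0.21 (n = 5 against 5, limma adjusted p = 0.0118), which was not called when only those 2 groups were fitted (adjusted p = 0.0597, range over alternatives 0.00404 to 0.0597). Within the high-fat diet, LowMg-HFD minus NormMg-HFD was -0.10 ± 0.21 (limma adjusted p = 0.77). The gene shares 557 exon bases with the antisense gene Gm48342, and whether counting used strand is not given in the sources used here.

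Mvk and Mvd follow in the mevalonate steps. Mvk (chr5:114444269-114460591), mevalonate kinase, had an FPKM of 17.7, 20.4, 20.1 and 16.04 in NormMg-LFD and of 16.9, 13.6, 24.1, 12.6 and 18.0 in LowMg-LFD. Its HFD values were 21.9, 25.0, 21.6, 26.1 and 24.4 in NormMg-HFD and 14.6, 17.5, 15.8, 22.3 and 18.3 in LowMg-HFD, where replicate 4 alone reached the NormMg-HFD range. LowMg-HFD minus NormMg-HFD was -0.42 ± 0.14 on the log2 scale (n = 5 against 5, limma adjusted p = 0.048). This call held in 7 of 28 alternative fits (adjusted p 0.0209 to 0.112) and was lost without any 1 of 15 of the 19 mice, that is, all but LowMg-HFD replicate 4 and LowMg-LFD replicates 2, 3 and 4.

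Mvd (chr8:122433601-122443422), mevalonate diphosphate decarboxylase, was low, with an FPKM of 4.32, 6.77, 7.33 and 4.40 in NormMg-LFD and of 10.03, 3.27, 17.1, 4.10 and 7.08 in LowMg-LFD. NormMg-HFD mice had 12.6, 12.5, 11.9, 12.5 and 10.4, and LowMg-HFD mice 4.96, 8.86, 7.46, 9.50 and 6.48. NormMg-HFD lay wholly above both NormMg-LFD and LowMg-HFD. Fat on normal Mg2+ gave a log2 rise of 0.98 ± 0.31 (n = 5 against 4, limma adjusted p = 0.0165), lost without NormMg-LFD replicate 2 (0.0535), without NormMg-LFD replicate 5 (0.0516) and after quantile normalization (0.0545), in a range over alternatives of 0.000584 to 0.0545. The LowMg-HFD difference of -0.64 ± 0.29 did not pass (limma adjusted p = 0.128). Mvd and Sqle were the 2 members that passed the filter on low values through NormMg-HFD alone, where Mvd is high, so its call is no support for a difference; with a filter of FPKM 1 its adjusted p was 0.0207.

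Fdps and Fdft1 make farnesyl diphosphate and squalene. Fdps (chr3:89093588-89101959) had an FPKM of 39.0, 31.1, 30.99 and 33.8 in NormMg-LFD and of 56.8, 22.1, 53.2, 25.9 and 37.6 in LowMg-LFD. In NormMg-HFD its values were 66.6, 53.1, 75.7, 65.4 and 45.4, and in LowMg-HFD 35.8, 48.9, 25.1, 51.5 and 35.3. The NormMg groups did not overlap, while LowMg-HFD replicates 2 and 4 entered the NormMg-HFD range. The fat comparison on normal Mg2+ gave 0.83 ± 0.25 in log2 (n = 5 against 4, limma adjusted p = 0.0127), in 28 of 28 alternative fits, and Mg2+ on the high-fat diet gave -0.65 ± 0.23 (limma adjusted p = 0.0591). The latter passed without any 1 of LowMg-HFD replicates 2 and 4, LowMg-LFD replicates 1 to 3 and NormMg-HFD replicate 5 (adjusted p 0.038 to 0.0492, range over alternatives 0.038 to 0.162). Fdps shares 1124 exon bases with Gm43738 on the same strand, whose FPKM stayed under 1 in every mouse.

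Fdft1 (chr14:63145150-63179578), squalene synthase, had an FPKM of 21.0, 21.5, 24.9 and 21.2 in NormMg-LFD and of 19.6, 17.2, 24.5, 21.7 and 21.1 in LowMg-LFD. The corresponding values were 33.9, 29.6, 39.0, 33.9 and 30.4 in NormMg-HFD and 25.4, 25.7, 19.6, 31.7 and 19.7 in LowMg-HFD. NormMg-HFD was above all LFD mice, and LowMg-HFD replicate 4 alone overlapped it. Its log2 rise with fat on normal Mg2+ was 0.57 ± 0.13 (n = 5 against 4, limma adjusted p = 0.00205), in 28 of 28 alternative fits. With low Mg2+ on the high-fat diet it fell by 0.45 ± 0.12 (n = 5 against 5, limma adjusted p = 0.0157), a call lost without NormMg-HFD replicate 3 (0.0537), LowMg-HFD replicate 3 (0.0529) or LowMg-HFD replicate 5 (0.0517), in a range of 0.0062 to 0.0537. Fdft1 shares 774 of its 4227 exon bases with Ctsb, a lysosomal protease on the opposite strand. Ctsb stood at 302 to 403 FPKM in NormMg-LFD, 842 to 1157 in NormMg-HFD and 394 to 784 in LowMg-HFD, and its part in the Fdft1 values was not tested.

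**Figure D2:**
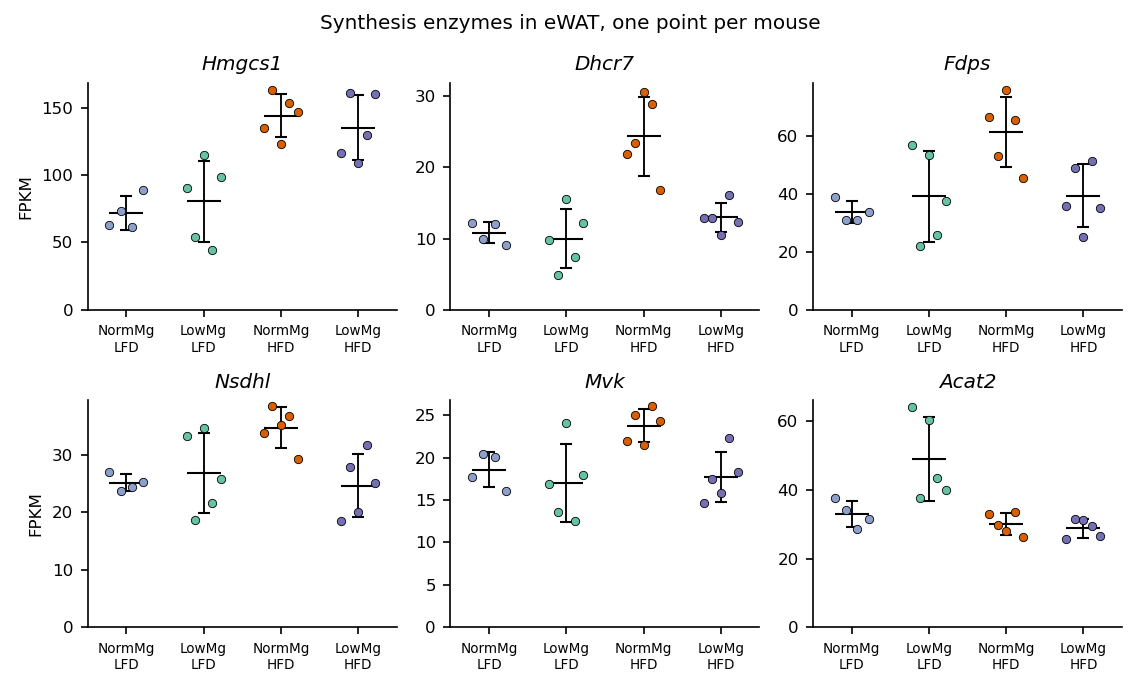
FPKM of 6 synthesis enzymes on linear axes from 0, with 1 point per mouse in each of the 4 diet groups (n = 4, 5, 5 and 5) and with the mean (long bar) and SD (error bar). Dhcr7 in NormMg-HFD (16.9 to 30.6) lies above all mice of the other groups, and Acat2 is highest in LowMg-LFD (37.7 to 64.3).

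Msmo1, Nsdhl, Tm7sf2, Ebp and Dhcr7 act after lanosterol. Dhcr7 (chr7:143823145-143848410), which makes the last reduction to cholesterol, had an FPKM of 12.2, 9.99, 12.0 and 9.12 in NormMg-LFD and of 9.86, 4.94, 15.5, 7.36 and 12.2 in LowMg-LFD. The NormMg-HFD mice had 21.9, 23.5, 30.6, 28.9 and 16.9, and the LowMg-HFD mice 12.9, 13.0, 10.5, 16.1 and 12.4. All NormMg-HFD mice exceeded every other mouse. Dhcr7 rose by 1.08 ± 0.23 on the log2 scale with fat on normal Mg2+ (n = 5 against 4, limma adjusted p = 0.00103). It fell by 0.84 ± 0.22 with low Mg2+ on the high-fat diet (n = 5 against 5, limma adjusted p = 0.0108), and both calls held in 28 of 28 alternative fits.

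Tm7sf2 (chr19:6062821-6068373), a sterol C14 reductase, had an FPKM of 10.7, 5.71, 9.98 and 9.15 in NormMg-LFD and of 13.9, 9.97, 9.15, 10.9 and 11.6 in LowMg-LFD. NormMg-HFD mice had 11.9, 12.0, 13.0, 10.9 and 12.2, and LowMg-HFD mice 10.03, 8.59, 8.79, 8.96 and 8.87. The lowest value was that of NormMg-LFD replicate 3, the mouse with the pancreas markers. The log2 rise with fat on normal Mg2+ was 0.42 ± 0.14 (n = 5 against 4, limma adjusted p = 0.0239), and 0.25 with an adjusted p of 0.124 without that mouse. The call held in 22 of 28 alternatives (0.013 to 0.136). It was also lost without NormMg-HFD replicate 3 (0.0543), after median centring (0.0911) and after quantile normalization (0.0979). The same held when only NormMg-HFD and NormMg-LFD were fitted (0.0543) and without both mice that carried RNA of other organs (0.136). Mg2+ on the high-fat diet gave -0.37 ± 0.13 (limma adjusted p = 0.0608) although the 2 groups did not overlap, and passed without NormMg-LFD replicate 3 (0.0195) or LowMg-LFD replicate 1 (0.048). The gene shares 532 exon bases with Vps51 on the same strand.

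Msmo1 (chr8:64718139-64733792), a sterol C4 methyl oxidase, had an FPKM of 15.2, 12.8, 33.4 and 11.3 in NormMg-LFD and of 18.0, 9.58, 21.6, 17.5 and 20.01 in LowMg-LFD. Among the HFD mice it had 31.1, 29.4, 23.5, 28.6 and 27.9 in NormMg-HFD and 19.5, 17.1, 12.3, 20.7 and 20.7 in LowMg-HFD. NormMg-LFD replicate 4 was above all NormMg-HFD mice, while LowMg-HFD lay wholly below them. Fat on normal Mg2+ raised it by 0.72 ± 0.25 on the log2 scale (n = 5 against 4, limma adjusted p = 0.0296), held in 19 of 28 alternatives (0.000628 to 0.116) and lost without NormMg-LFD replicate 2, 3 or 5 (0.0705, 0.101 and 0.116) or NormMg-HFD replicate 1, 2 or 4 (0.0595, 0.0513 and 0.0511). The LowMg-HFD difference was -0.63 ± 0.24 (limma adjusted p = 0.0732), and passed without NormMg-LFD replicate 4 (0.0197) or LowMg-LFD replicate 2 (0.0462).

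Ebp (chrX:8185329-8193512), a sterol isomerase, had an FPKM of 18.6, 25.0, 37.1 and 28.0 in NormMg-LFD and of 22.8, 29.1, 31.5, 35.2 and 22.1 in LowMg-LFD. Its NormMg-HFD values were 41.1, 33.8, 46.6, 35.5 and 34.5, and its LowMg-HFD values 26.9, 29.2, 24.5, 30.5 and 28.9. NormMg-LFD replicate 4 again reached the NormMg-HFD range, and LowMg-HFD lay wholly below it. The log2 rise with fat on normal Mg2+ was 0.51 ± 0.16 (n = 5 against 4, limma adjusted p = 0.0189), lost without NormMg-LFD replicate 2 (0.0957), NormMg-LFD replicate 3 (0.0507) or NormMg-HFD replicate 3 (0.055), in a range of 0.00259 to 0.0957. Mg2+ on the high-fat diet gave -0.43 ± 0.15 (limma adjusted p = 0.0578), and passed without NormMg-LFD replicate 2 (0.0352), NormMg-LFD replicate 4 (0.0325) or LowMg-LFD replicate 4 (0.0483).

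Nsdhl (chrX:72918557-72958514), a sterol dehydrogenase of the same demethylation steps, had an FPKM of 27.1, 23.7, 24.4 and 25.3 in NormMg-LFD and of 33.2, 18.7, 34.6, 21.6 and 25.7 in LowMg-LFD. It had 33.7, 38.5, 35.2, 36.8 and 29.2 in NormMg-HFD and 18.5, 27.9, 20.1, 31.8 and 25.0 in LowMg-HFD. The NormMg groups did not overlap, and LowMg-HFD replicate 4 alone entered the NormMg-HFD range. Fat on normal Mg2+ raised it by 0.44 ± 0.17 (n = 5 against 4, limma adjusted p = 0.0428), held in 12 of 28 alternatives (0.00357 to 0.155), and low Mg2+ on the high-fat diet lowered it by 0.50 ± 0.16 (n = 5 against 5, limma adjusted p = 0.0342), held in 17 of 28 (0.0158 to 0.0938), all on the log2 scale. The fat call was lost without any 1 of 10 mice, namely NormMg-LFD replicates 2 to 5, NormMg-HFD replicates 1 to 4, LowMg-HFD replicate 5 and LowMg-LFD replicate 5 (0.0502 to 0.0984). The Mg2+ call was lost without any 1 of 7, namely NormMg-HFD replicates 1 to 4 and LowMg-HFD replicates 1, 3 and 5 (0.0579 to 0.0938).

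The other 6 enzymes tested passed the threshold in none of the 5 comparisons: Pmvk, Idi1, Sqle, Lss, Cyp51 and Sc5d. Their mean FPKM in NormMg-HFD ran from 10.4 for Sqle, the squalene epoxidase, to 75.2 for Sc5d, a sterol desaturase. For Lss, which closes the ring to lanosterol, all NormMg-HFD mice (22.1 to 36.2) lay above all NormMg-LFD (14.9 to 18.99) and all LowMg-HFD mice (11.5 to 21.8), with log2 differences of 0.59 ± 0.33 for fat on normal Mg2+ (limma adjusted p = 0.163) and -0.76 ± 0.31 for Mg2+ on the high-fat diet (limma adjusted p = 0.0909), the latter called without LowMg-LFD replicate 1 (0.0412) or 2 (0.0343). The isomerase Idi1 also lay wholly lower in LowMg-HFD (10.8 to 17.0) than in NormMg-HFD (19.9 to 25.95), by -0.64 ± 0.25 (limma adjusted p = 0.0801, and 0.0481 without LowMg-LFD replicate 3). For fat on normal Mg2+, Idi1 passed without NormMg-LFD replicate 4 (0.0476), and Sc5d (0.00701) and Mvk (0.038) without LowMg-LFD replicate 3. When only NormMg-HFD and NormMg-LFD were fitted, Lss (0.00703), Sc5d (0.00762), Idi1 (0.0183) and Mvk (0.0206) passed. For fat on low Mg2+, Sc5d passed without LowMg-LFD replicate 3 (0.50 on the log2 scale, 0.0277) and Pmvk without LowMg-LFD replicate 2 (-0.71, 0.0274). Hsd17b7 was under the filter, with a group mean FPKM of 3.33 to 6.18. In a fit with a filter of FPKM 1, its rise with fat on normal Mg2+ was 0.79 ± 0.25 on the log2 scale (limma adjusted p = 0.0239, n = 5 against 4).

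The spread of the synthesis enzymes was widest in LowMg-LFD. The median SD of log2(FPKM + 1) over the 17 enzymes tested was 0.59 there, against 0.27 in NormMg-LFD, 0.16 in NormMg-HFD and 0.28 in LowMg-HFD, while over all genes tested it was 0.18 to 0.21 in the 4 groups. The mean log2(FPKM + 1) of these enzymes ranged from 3.89 to 5.03 across LowMg-LFD mice and from 4.75 to 5.04 across NormMg-HFD mice. LowMg-LFD replicate 3 had the highest value of its group for 11 of the 18 enzymes and replicate 1 for 5, and replicate 2 had the lowest for 14. Replicates 1 and 3 together held the highest values of the group for 9 of the 18 enzymes. Fasn and Acly, fatty acid synthesis genes chosen after their values were seen, were also highest in these mice. Srebf1 was 188 in replicate 1, 233 in replicate 2 and 232 in replicate 3. Fasn had an FPKM of 2987, 715, 2318, 771 and 1501 in LowMg-LFD, and Acly 762, 118, 587, 113 and 279. In LowMg-HFD, replicate 4 had the highest value for 13 of the 18 enzymes.

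**Figure D3:**
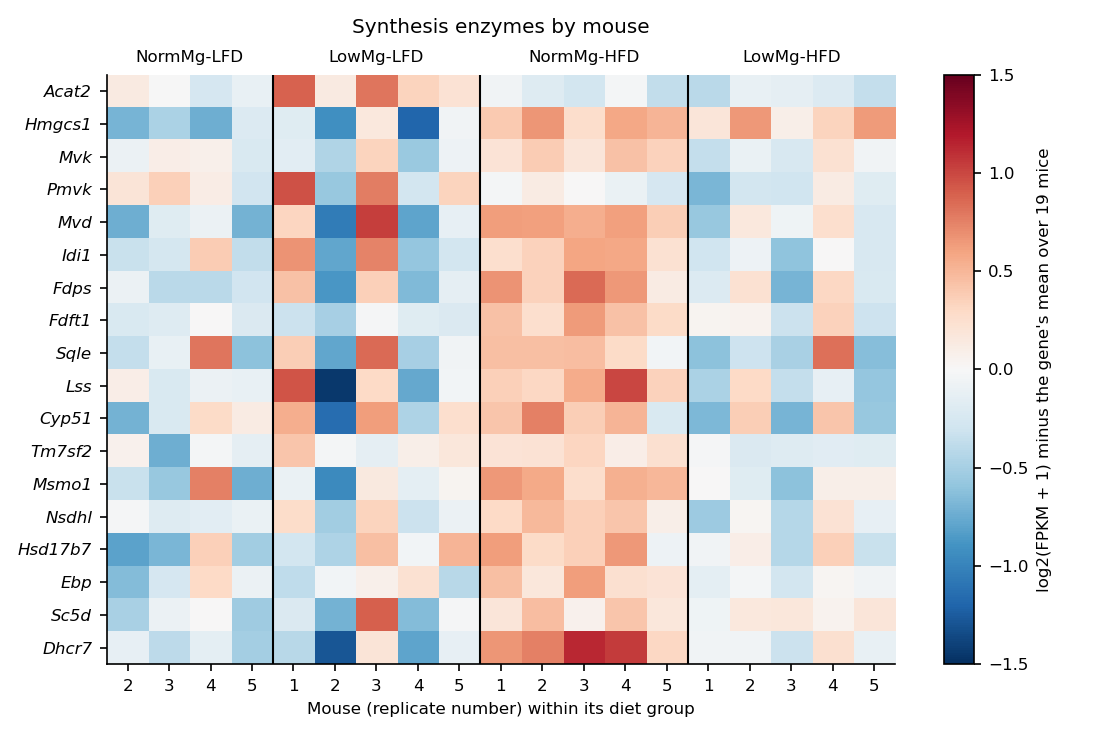
Deviation of each of the 18 synthesis enzymes (rows) in each of the 19 mice (columns, by diet group and replicate number) from that gene's mean log2(FPKM + 1), from blue (lower) to red (higher). In LowMg-LFD, replicate 3 is red and replicate 2 blue for most enzymes. Replicate 1 is red for some, such as Acat2 and Lss, and blue for others, such as Ebp and Dhcr7. The NormMg-HFD columns resemble each other.

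Among the SREBP regulators, Srebf2 and Insig1 rose with fat on normal Mg2+, and none was called in the other comparisons of the fit given here. Srebf2 (chr15:82147181-82205379), which encodes SREBP2, had an FPKM of 9.03, 11.6, 19.98 and 9.91 in NormMg-LFD and of 7.75, 9.51, 13.7, 11.6 and 11.6 in LowMg-LFD. The HFD groups had 17.7, 17.3, 20.4, 18.4 and 14.9 (NormMg-HFD) and 11.2, 11.5, 13.3, 15.2 and 11.1 (LowMg-HFD). NormMg-LFD replicate 4 lay among the NormMg-HFD mice, as did LowMg-HFD replicate 4. The log2 rise with fat was 0.52 ± 0.18 (n = 5 against 4, limma adjusted p = 0.0325), held in 19 of 28 alternatives (0.000926 to 0.128). It was lost without NormMg-LFD replicate 2, 3 or 5 (0.128, 0.0731 and 0.105) or NormMg-HFD replicate 1, 3 or 4 (0.0536, 0.0765 and 0.0591). Low Mg2+ on the high-fat diet gave -0.48 ± 0.17 (limma adjusted p = 0.0599), which passed with the replicate number as a block (adjusted p = 0.0301, range over alternatives 0.0169 to 0.144), after quantile normalization (0.0437), when only those groups were fitted (0.018) and without LowMg-HFD replicate 4 (0.0446), LowMg-LFD replicate 1 (0.0462), NormMg-HFD replicate 5 (0.0486) or NormMg-LFD replicate 4 (0.0169).

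Insig1 (chr5:28071363-28078662), a sterol-regulated anchor of SCAP and itself an SREBP target, varied most of the regulators. Its FPKM was 72.2, 103, 148 and 75.5 in NormMg-LFD and 112, 41.8, 283, 66.7 and 105 in LowMg-LFD. In NormMg-HFD it was 177, 232, 161, 206 and 177, above all NormMg-LFD mice, and in LowMg-HFD 122, 236, 132, 191 and 139.6. LowMg-LFD replicate 3 was higher than any other mouse. The rise with fat on normal Mg2+ was 0.97 ± 0.37 in log2 terms (n = 5 against 4, limma adjusted p = 0.0445), held in 11 of 28 alternative fits (0.00204 to 0.123). It was lost without any 1 of 11 mice: NormMg-LFD replicates 2, 3 and 5, NormMg-HFD replicates 1 to 5, LowMg-HFD replicate 5 and LowMg-LFD replicates 1 and 5 (0.0502 to 0.123). Fat on low Mg2+ gave 0.68 (limma adjusted p = 0.198), and 1.06, which passed, without LowMg-LFD replicate 3 (0.0128).

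Insig2 (chr1:121304353-121332589), the second anchor, had an FPKM of 43.7, 34.6, 34.0 and 47.0 in NormMg-LFD and of 38.1, 35.9, 30.0, 39.5 and 55.8 in LowMg-LFD. It had 32.5, 44.7, 32.7, 29.6 and 36.8 in NormMg-HFD and 38.3, 31.2, 48.6, 35.4 and 44.1 in LowMg-HFD. Scap (chr9:110333288-110384950), the sterol sensor, had 16.8, 15.3, 19 and 14.2 in NormMg-LFD and 11.8, 14.9, 13.0, 20.3 and 11.3 in LowMg-LFD. The groups of both genes overlapped throughout. In the HFD groups Scap had 14.5, 16.8, 12.7, 16.01 and 13.6 (NormMg-HFD) and 11.5, 13.3, 14.5, 17.9 and 15.1 (LowMg-HFD). The log2 differences of these 2 genes lay between -0.20 and 0.17 in the 4 pairs of groups and the interaction, with limma adjusted p of 0.439 or more.

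Soat1, Npc1 and Npc2 handle cholesterol inside the cell, and all 3 rose with fat on normal Mg2+ and fell with low Mg2+ within the high-fat diet. On low Mg2+ the fat difference of none of them passed. Npc1 and Npc2 together pass cholesterol out of lysosomes. The FPKM of Npc1 was 8.57, 7.51, 10.1 and 9.98 in NormMg-LFD and 7.86, 10.7, 9.81, 11.0 and 9.08 in LowMg-LFD. It was 21.4, 17.7, 18.9, 21.1 and 18.3 in NormMg-HFD and 16.9, 13.5, 10.2, 10.1 and 11.2 in LowMg-HFD. NormMg-HFD lay above every other mouse. The log2 rise with fat on normal Mg2+ was 1.03 ± 0.14 (n = 5 against 4, limma adjusted p = 1.2e-05), and the fall with low Mg2+ on the high-fat diet was 0.63 ± 0.13 (-0.63 in LowMg-HFD minus NormMg-HFD, n = 5 against 5, limma adjusted p = 0.00387). Both held in 28 of 28 alternative fits. Fat on low Mg2+ gave 0.31 ± 0.13 (limma adjusted p = 0.12). Its interaction term was -0.73 ± 0.19 (limma adjusted p = 0.0551), and passed without LowMg-HFD replicate 1 (0.0163), LowMg-HFD replicate 2 (0.0351), LowMg-LFD replicate 1 (0.043) or NormMg-HFD replicate 5 (0.0477) and after median centring (0.0414) or quantile normalization (0.0283), in a range over alternatives of 0.0163 to 0.158. It shares 511 exon bases with Rmc1 on the opposite strand.

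Npc2 (chr12:84754562-84773152) had an FPKM of 195, 159.6, 119.6 and 213 in NormMg-LFD and of 168, 198, 202, 178 and 202 in LowMg-LFD. HFD mice had 372, 315, 387, 359.6 and 379 in NormMg-HFD and 294, 377, 189, 205 and 238 in LowMg-HFD. LowMg-HFD replicate 2 was within the NormMg-HFD range, and the other four were below it. Fat on normal Mg2+ gave a log2 rise of 1.10 ± 0.17 (n = 5 against 4, limma adjusted p = 6.21e-05), in 28 of 28 alternatives, and fat on low Mg2+ gave 0.41 ± 0.16 (limma adjusted p = 0.094, and 0.0361 without LowMg-HFD replicate 3). Low Mg2+ on the high-fat diet gave a fall of 0.52 ± 0.16 (-0.52, n = 5 against 5, limma adjusted p = 0.0344), held in 18 of 28 (0.00458 to 0.121) and lost without any 1 of 7 mice, namely NormMg-HFD replicates 1, 3, 4 and 5 and LowMg-HFD replicates 3, 4 and 5 (0.0565 to 0.103).

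Soat1 (chr1:156424525-156474331) esterifies cholesterol for storage. Its FPKM was 3.30, 7.24, 16.6 and 4.88 in NormMg-LFD and 4.24, 11.1, 6.69, 9.94 and 4.95 in LowMg-LFD. It reached 56.4, 36.7, 59.2, 45.0 and 34.3 in NormMg-HFD and 32.7, 48.0, 7.0, 13.1 and 11.2 in LowMg-HFD. The LowMg-HFD mice split into replicates 1 and 2, near the NormMg-HFD mice, and replicates 3, 4 and 5, near the LFD mice. Its log2 rise with fat on normal Mg2+ was 2.57 ± 0.46 (n = 5 against 4, limma adjusted p = 0.000198), in 28 of 28 alternatives. Soat1 passed the filter on low values through NormMg-HFD and LowMg-HFD alone, where it is high, which favours a rise with fat. Fat on low Mg2+ gave 1.23 ± 0.43 (limma adjusted p = 0.0572), which passed without LowMg-HFD replicate 3 (0.0162), LowMg-HFD replicate 5 (0.049) or NormMg-LFD replicate 4 (0.0384). LowMg-HFD minus NormMg-HFD was -1.31 ± 0.43 (n = 5 against 5, limma adjusted p = 0.0404), held in 18 of 28 (0.00744 to 0.12) and lost without NormMg-HFD replicate 1, 3 or 4 (0.0877, 0.101 and 0.0704) or LowMg-HFD replicate 3, 4 or 5 (0.12, 0.0803 and 0.102). Stard4, a sterol carrier under the filter, had a group mean FPKM of 3.66 to 5.56 and passed no test with a filter of FPKM 1 (smallest limma adjusted p = 0.187).

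The 6 LXR and efflux genes did not move as one. Abcg1, which loads cholesterol onto HDL, rose with fat on normal Mg2+ and fell with low Mg2+ within the high-fat diet. Abcg1 (chr17:31057675-31117988) had an FPKM of 13.9, 12.2, 9.36 and 15.96 in NormMg-LFD and of 12.2, 12.8, 13.0, 12.6 and 14.3 in LowMg-LFD. Under the high-fat diets it had 40.8, 28.1, 34.9, 35.4 and 32.03 in NormMg-HFD and 34.7, 23.6, 12.7, 11.1 and 20.3 in LowMg-HFD, where replicate 1 alone was within the NormMg-HFD range. The log2 rise with fat on normal Mg2+ was 1.36 ± 0.23 (n = 5 against 4, limma adjusted p = 0.000122), and Mg2+ on the high-fat diet gave -0.82 ± 0.22 (n = 5 against 5, limma adjusted p = 0.0132). Both calls held in 28 of 28 alternative fits. Fat on low Mg2+ gave 0.51 ± 0.22 (limma adjusted p = 0.118), which passed without LowMg-HFD replicate 3 (0.0477) or 4 (0.0215). Abca1 (chr4:53030787-53159895), which loads cholesterol onto lipid-poor apolipoprotein, ranged from 38.7 to 57.3 over all 19 mice, and its log2 differences lay between -0.09 and 0.04 in the 4 pairs of groups.

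Apoe (chr7:19696109-19699188), the lipoprotein component that carries exported cholesterol, was the member with the highest FPKM. It had 3887, 4034, 3975 and 3648 in NormMg-LFD and 2849, 3901, 3365, 3349 and 3559 in LowMg-LFD. NormMg-HFD mice had 1900.4, 1986, 1988, 1824 and 1845, and LowMg-HFD mice 2848, 2114, 3356, 1573 and 2917. NormMg-HFD lay wholly below both LFD groups, and LowMg-HFD replicate 4 lay below all NormMg-HFD mice while the other four lay above them. The log2 fall with fat on normal Mg2+ was 1.03 ± 0.16 (-1.03, n = 5 against 4, limma adjusted p = 5.74e-05), in 28 of 28 alternatives. On low Mg2+ the difference was -0.45 ± 0.15 (n = 5 against 5, limma adjusted p = 0.0482), held in 6 of 28 alternatives (0.0132 to 0.447) and lost without any 1 of 16 mice, that is, all but LowMg-HFD replicates 3 and 5 and LowMg-LFD replicate 1. Within the high-fat diet, low Mg2+ gave 0.38 ± 0.15 (limma adjusted p = 0.0908). That difference was 0.54 and called without LowMg-HFD replicate 4 (0.00693, range over alternatives 0.00693 to 0.349).

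The receptors and Mylip were called in none of the comparisons. Nr1h3 (LXR alpha) ranged from 51.2 to 66.1 FPKM and Nr1h2 (LXR beta) from 30.6 to 52.9 over all mice, and Mylip, an LXR target that marks lipoprotein receptors for degradation, from 12.5 to 24.2. Their log2 differences in the 4 pairs of groups lay between -0.14 and 0.15.

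**Figure D4:**
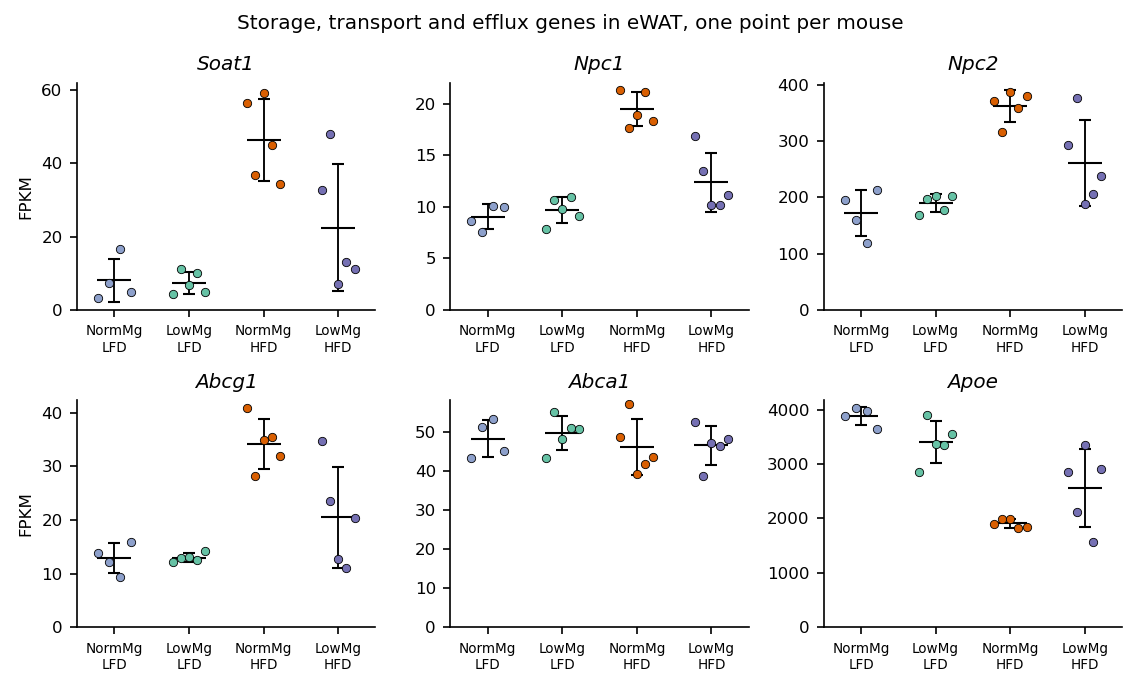
FPKM of 6 genes of storage, transport and efflux on linear axes from 0, with 1 point per mouse in each diet group (n = 4, 5, 5 and 5) and with the mean (long bar) and SD (error bar). Soat1 in LowMg-HFD runs from 7.0 to 48.0, the groups overlap for Abca1, and Apoe is lowest in NormMg-HFD apart from 1 LowMg-HFD mouse at 1573.

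The macrophage marker sum was highest in NormMg-HFD, where all 15 members called higher with fat on normal Mg2+, synthesis enzymes and regulators included, also had their highest group mean, while Apoe had its lowest mean there. Within LowMg-HFD the sum was 2146, 1890, 1270, 843 and 1240 in the order of replicate numbers, so replicates 1 and 2, with the highest Soat1, Npc1, Npc2 and Abcg1, also had the highest sums. The adipocyte marker sum (none of the 8 at 0) was 17110 to 22890 in NormMg-LFD, 17970 to 27080 in LowMg-LFD, 12740 to 17250 in NormMg-HFD and 16100 to 19770 in LowMg-HFD, so NormMg-HFD was the lowest group, although NormMg-HFD replicate 5 (17250) lay above the lowest mouse of NormMg-LFD (17110) and of LowMg-HFD (16100). Its part in the differences was not tested. Dhcr7 was 12.9 and 13.0 in LowMg-HFD replicates 1 and 2 and 16.1 in replicate 4, which had the lowest macrophage sum of its group. The part of macrophage RNA in the members' differences was not tested. The endothelial sum (6 genes) was 185 to 255 over all mice and the lymphocyte sum (7 genes) 4.33 to 32.4. The mesothelial sum (4 genes, none at 0) was 29.5 to 88.7 in NormMg-LFD, 16.8 to 48.2 in LowMg-LFD, 8.38 to 19.5 in NormMg-HFD and 15.1 to 38.7 in LowMg-HFD, so it was lower in NormMg-HFD than in NormMg-LFD without overlap, and its part in the fat comparison was not tested.

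**Figure D5:**
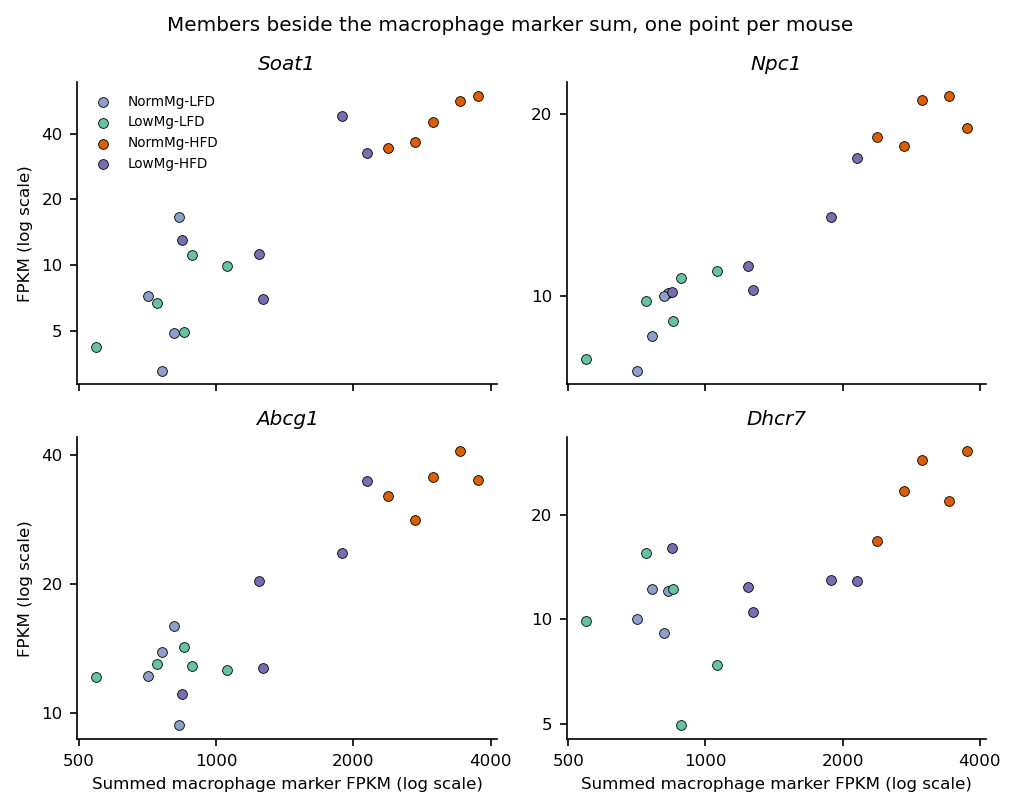
FPKM of Soat1, Npc1, Abcg1 and Dhcr7 beside the summed FPKM of the 12 macrophage markers, both on log axes, with 1 point per mouse coloured by diet group (19 mice). LowMg-HFD replicates 1 and 2 (sums of 2146 and 1890) have the highest values of their group for Soat1, Npc1 and Abcg1, and lie among the remaining LowMg-HFD mice for Dhcr7.

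Other genes of sterol handling, 36 in a second list of which 29 passed the filter, 3 of them through 1 group alone, were read beside the members. On normal Mg2+ the high-fat diet raised 10 and lowered 5 of them, with a median log2 difference of 0.26, where 24.6% of all genes tested were called higher and 12.8% lower. On the high-fat diet low Mg2+ lowered 8 and raised 2, with a median of -0.09, where 12.9% of all genes tested were called lower and 5.58% higher. On low Mg2+ the high-fat diet raised 4 and lowered 2, near the share of 12.4% higher among all genes tested and beside 3.51% lower, and none was called for Mg2+ on the low-fat diet or for the interaction. Lipa, which frees cholesterol from esters in lysosomes, had an FPKM of 19.3, 19.6, 22.8 and 23.6 in NormMg-LFD, 189, 136, 181, 176 and 127 in NormMg-HFD and 125, 102, 39.95, 33.3 and 44.6 in LowMg-HFD. Its log2 differences were 2.85 ± 0.29 for fat on normal Mg2+ (limma adjusted p = 1.4e-06) and -1.40 ± 0.28 for Mg2+ on the high-fat diet (limma adjusted p = 0.00299). Nceh1, a cholesteryl ester hydrolase, had 2.18 to 4.57 in NormMg-LFD, 24.1 to 39.1 in NormMg-HFD and 24.0, 19.98, 5.60, 6.14 and 5.62 in LowMg-HFD. It thus showed the same division of LowMg-HFD replicates 1 and 2 from 3, 4 and 5 as Soat1 and Lipa. Nceh1 passed the filter on low values through NormMg-HFD alone, where it is high, so its log2 differences of 3.09 ± 0.37 and -1.53 ± 0.35 are given as a description.

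Srebf1, which encodes the SREBP of fatty acid synthesis, moved the other way from Srebf2 with fat on normal Mg2+. It had an FPKM of 179 to 192 in NormMg-LFD, 161 to 233 in LowMg-LFD, 84.1 to 99.3 in NormMg-HFD and 104 to 158 in LowMg-HFD, with no overlap between the HFD groups. Fat on normal Mg2+ lowered it by 0.98 ± 0.12 (-0.98, limma adjusted p = 3.77e-06), fat on low Mg2+ by 0.57 ± 0.11 (-0.57, limma adjusted p = 0.00244), and low Mg2+ on the high-fat diet raised it by 0.50 ± 0.11 (limma adjusted p = 0.00516). Apoc1, an apolipoprotein gene beside Apoe, also fell with fat, by 1.08 ± 0.16 on normal Mg2+ (-1.08, limma adjusted p = 4.11e-05) and by 1.04 ± 0.15 on low Mg2+ (-1.04, limma adjusted p = 0.00062).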

How the data were processed

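Total RNA from the eWAT of 19 mice was sequenced (HiSeq, single-end). Per the study's methods and the submitters' processing notes, the authors aligned reads with HISAT and Bowtie2 (GRCm38, mm10), estimated expression with RSEM 1.2.31 and deposited FPKM values per gene. Whether counting used strand is not given in the sources used here. The authors also deposited a read count per library and the percent of reads mapped, per the file headers. For 26 genes the symbol had become a date and was put back through the gene identifier.

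A gene was tested if some group's mean was over FPKM 8 and 4 or more mice of that group exceeded 8 (8336 genes, 30 of 32 members). Values were taken as log2(FPKM + 1), so a fold change understates that of low genes. All 4 groups entered 1 limma model (limma 3.58.1, R 4.3.3, intensity trend). Each difference is given with its SE and a Benjamini-Hochberg adjusted p over all genes tested, at a threshold of 0.05. Tests were two-sided, and the fit was tested on simulated data. Alternatives were a pseudocount of 0.1, an FPKM filter of 1, no filter, median centring, quantile normalization, no intensity trend, only the groups compared, the replicate number as a block, and each mouse left out. A fit without both mice that carried RNA of other organs was chosen after seeing the data.

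All 32 members are named. Values by mouse are given for members past the threshold in any comparison and for the 4 SREBP regulators. They are grouped by stage of the pathway, and within a stage not in the order of the reactions. Other genes named were chosen after their values were seen. The members and lists were chosen with earlier results of these data known. The study left out a LowMg-HFD mouse for pancreatic tissue. All 5 with values were used here, since pancreas markers stood apart in NormMg-LFD replicate 3 and in none of them. Depth per mouse was alike, and no 2 mice held identical values. Gene positions are those of GENCODE M21 (GRCm38).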

Additional observations from a re-analysis of the deposited data

Results flagged for a closer look

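Among 128 sets of values (32 members in 4 groups), 6 held a mouse whose gap to the nearest other mouse was large for the group's range (Dixon's test at the 95% level), where chance flags about 1 in 20. Of these, 3 were NormMg-LFD replicate 4, with a high FPKM for Idi1 (22.2, others 12.8 to 13.9), for Fdft1 (24.9, others 21.0 to 21.5) and for Stard4 (7.15, others 2.90 to 3.21). LowMg-HFD replicate 4 stood apart for Sqle (15.0, others 4.82 to 6.27), and LowMg-HFD replicate 1 for Tm7sf2 (10.03, others 8.59 to 8.96). LowMg-LFD replicate 3 stood apart for Insig1 (283, others 41.8 to 112). No member passed the interaction test.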

How the results depend on the processing

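No called difference of a member changed sign under any alternative. Members lower with low Mg2+ on the high-fat diet numbered 8, and 4 without a filter, 5 after median centring, 15 when only those groups were fitted, and 3 to 11 with 1 mouse left out. Members higher there numbered 0 to 1 with 1 mouse left out. Members higher with fat on normal Mg2+ numbered 15, and 10 after quantile normalization, 11 without a filter, 12 after median centring and 9 to 17 with 1 mouse left out. With fat on low Mg2+, 1 member was higher, 0 when only those groups were fitted and 1 to 4 with 1 mouse left out, and 2 were lower, 1 with an FPKM filter of 1, without a filter, after quantile normalization, when only those groups were fitted, under the replicate block and with both mice that carried RNA of other organs left out, and 1 to 2 with 1 mouse left out. For the interaction, 0 members were called, 1 lower after median centring, 2 lower after quantile normalization and 0 to 3 lower with 1 mouse left out. The median log2 difference of the LXR and efflux genes with fat was -0.07 on normal Mg2+, -0.17 after median centring and -0.19 after quantile normalization, and 0.11 on low Mg2+, 0.0 and 0.01 after these scalings, and the cause was not tested. The median of the synthesis enzymes with fat on low Mg2+ turned from 0.01 to -0.10 and -0.18 under them.

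With the replicate number as a block, 13 members were higher and 1 lower with fat on normal Mg2+, 7 were lower with low Mg2+ on the high-fat diet, and 0 passed the interaction, as did 0 of all genes where 104 passed without the block. Mice with the same number did not deviate together (27 pairs, median r 0.00, range -0.18 to 0.34, 5 over 0.1), and 3 of 19 mice resembled best a mouse of their own number, so the numbers were not taken to pair mice. Depth was alike in all mice, and each group had 4 or 5 mice.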
